A study of Mus musculus with 13 samples.

Results

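The genes described here are a receptor, Notch1, 3 transcripts that Notch signalling is known to induce (Hes1, Dtx1 and Nrarp), and 6 genes of early T-lineage cells (Tcf7, Gata3, Cd28, Cd7, Cd3g and Thy1). They are the 10 rows, of 24072 in each deposited count file, whose RefSeq identifier belongs to one of these symbols. All 10 were found, and 9 of them passed the filter on low counts. Their RNA was measured by sequencing total RNA of common lymphoid progenitors, here CLP, which live in bone marrow and give rise to lymphocytes. The cells came from wild-type mice of strain C57BL/6 and were sorted on the surface proteins Ly6D and Gfra2. There were 3 Ly6D+Gfra2+ libraries (replicates 4, 5 and 6), 4 Ly6D+Gfra2- libraries (replicates 1, 2, 5 and 6) and 6 Ly6D-Gfra2- libraries (replicates 1 to 6). The labels give no age, no treatment and no statement of whether animals were pooled, and nothing says that replicates are separate animals, so a p-value here reflects spread among libraries that may be technical.

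Notch receptors are cleaved when they bind a ligand on a neighbouring cell. The freed intracellular part enters the nucleus and joins the DNA-binding protein RBPJ and a Mastermind coactivator to switch on target genes. In the thymus this signal, given by the ligand Dll4, starts T-cell development. TCF-1, the product of Tcf7, and Gata3 are induced early in that process. In bone marrow the same progenitors mostly become B cells. Ly6D marks CLP with a bias to the B lineage. Gfra2 is the part of the receptor complex that binds neurturin, a neurotrophic factor.

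RefSeq promoter windows (GRCm38.p6) were matched for 6 of the 10 genes. Of these, 2 are shown as the 250 bases upstream of the transcription start, Nrarp because it is a direct Notch target and Cd3g because its window was the only one with a match to any letters searched. The letters were TGGGAA, the core that RBPJ binds, CTTTGA for TCF proteins, AGATAA for GATA proteins and, for EBF proteins, TCCC and GGGA separated by any 2 bases, each on both strands. Capitals mark TGGGAA.
Nrarp, chr2:25180508-25180757, plus strand: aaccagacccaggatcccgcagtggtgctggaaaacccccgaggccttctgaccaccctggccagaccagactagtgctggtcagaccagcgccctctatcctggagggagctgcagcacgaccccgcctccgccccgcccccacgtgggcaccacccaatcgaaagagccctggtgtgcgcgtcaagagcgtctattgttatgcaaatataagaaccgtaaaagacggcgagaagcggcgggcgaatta
Cd3g, chr9:44980432-44980681, minus strand: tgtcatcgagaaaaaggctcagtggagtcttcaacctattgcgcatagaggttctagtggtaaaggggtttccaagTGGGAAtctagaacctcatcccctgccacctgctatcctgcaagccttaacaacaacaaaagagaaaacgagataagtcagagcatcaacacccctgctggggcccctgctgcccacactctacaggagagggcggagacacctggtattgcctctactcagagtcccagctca
In the Cd3g window TGGGAA lay at -174 to -169 from the start and AGATAA at -104 to -99. Over the same 250 upstream bases of 32851 promoters, TGGGAA occurred in 21.6%, CTTTGA in 13.8%, AGATAA in 9.99% and the EBF letters in 0.779%. None of these letters was in the Nrarp window, which says only that they are not in these 250 bases.

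Total counts were 9287598 to 9771228 in Ly6D+Gfra2+, 9200722 to 20098978 in Ly6D+Gfra2- and 6892728 to 23705975 in Ly6D-Gfra2- libraries. Levels are CPM, that is counts scaled to a common library size of 1000000 after TMM scaling, where 3 counts are worth 0.133 to 0.389 CPM. Between 10837 and 12369 genes had a count in the Ly6D+Gfra2+ libraries, against 11636 to 13364 in Ly6D+Gfra2- and 12904 to 13969 in Ly6D-Gfra2- libraries. Gfra2 RNA matched the sort in every library. Ly6d RNA reached 213 CPM in replicate 3 of the group labelled Ly6D-Gfra2-, inside the 158 to 507 CPM of the 7 Ly6D-positive libraries, whereas the other 5 of its group did not exceed 8.30 CPM. Names of libraries start with P or T, a prefix of unstated meaning. Replicates 1 to 3 of Ly6D-Gfra2- and 1 and 2 of Ly6D+Gfra2- are P, and all the others are T, so all Ly6D+Gfra2+ libraries share 1 prefix. The CLP markers Il7r, Flt3, Kit, Dntt, Cd34, Cd27, Rag1 and Ptprc summed to 7380 to 8720 CPM in Ly6D+Gfra2+, 6350 to 7640 CPM in Ly6D+Gfra2- and 5770 to 6940 CPM in Ly6D-Gfra2- libraries. Within that sum the markers went opposite ways in Ly6D+Gfra2+ cells against Ly6D-Gfra2- cells. There edgeR called Rag1 (log2 fold change 4.03) and Il7r (1.19) higher, as it did 0.928% of all genes. It called Cd34 (-2.62) lower, as it did 0.464% of all genes. Against Ly6D+Gfra2- cells it called Rag1 alone of the 8, higher by 2.98 (log2), as it did 0.204% of all genes. Summed B-lineage markers reached 2830 to 3370 CPM in Ly6D+Gfra2+ libraries, against 489 to 827 CPM in Ly6D+Gfra2- and 143 to 671 CPM in Ly6D-Gfra2- libraries.

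Ly6D+Gfra2+ cells had far less Cd28 RNA than both other compartments and almost no Tcf7 RNA, while Notch1 was read at 438 CPM or more in all 13 libraries. Between Ly6D+Gfra2- and Ly6D-Gfra2- cells no gene of the 10 passed the test. The Notch target Hes1 had its highest values in Ly6D+Gfra2+ cells without passing the test. Each Ly6D+Gfra2+ library held a count of 4, 5 or 7 of the 10 genes. Ly6D+Gfra2- libraries held 6, 9, 8 and 8 of them, and Ly6D-Gfra2- libraries 8 or 9. Over all 24072 rows, 10837 to 12369 had a count in Ly6D+Gfra2+, 11636 to 13364 in Ly6D+Gfra2- and 12904 to 13969 in Ly6D-Gfra2- libraries. Pairs of libraries within a group correlated at 0.768 to 0.817, 0.802 to 0.887 and 0.870 to 0.912 in the same order (log2(CPM + 1), tested genes). Counts per gene come from many cells, so fewer cells with a transcript and less transcript per cell cannot be told apart.

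**Figure D1:**
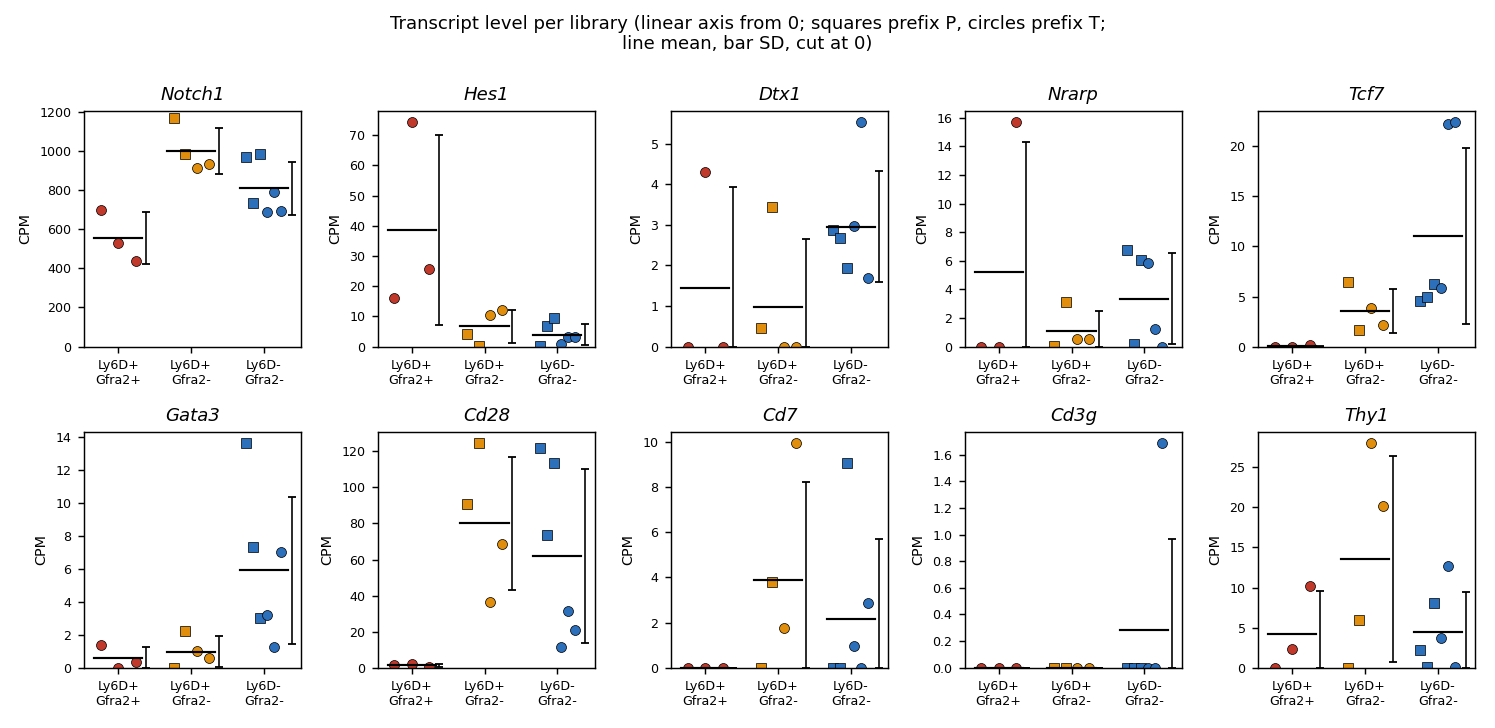
CPM of each gene in every library (linear axis from 0, each gene on its own scale), by sorted group; squares are libraries of prefix P, circles those of prefix T, lines are means and bars SD, cut at 0. Cd28 does not exceed 2.03 CPM in any Ly6D+Gfra2+ library and is 11.3 CPM or more in the other 10, and Tcf7 has a single count over the 3 Ly6D+Gfra2+ libraries together.

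Notch1 (NM_008714, chromosome 2, 26457902 to 26503822, minus strand) encodes the receptor that starts T-cell development. Its level was 697, 528 and 438 CPM in Ly6D+Gfra2+ libraries, 1169, 985, 912 and 932 CPM in Ly6D+Gfra2- libraries, and 687 to 984 CPM (median 761) in Ly6D-Gfra2- libraries. The Ly6D+Gfra2+ and Ly6D+Gfra2- libraries did not overlap, and the Ly6D+Gfra2+ range met that of Ly6D-Gfra2- at its upper end. Means were 554 ± 132 CPM in Ly6D+Gfra2+ (SD, n = 3), 999.6 ± 117 CPM in Ly6D+Gfra2- (SD, n = 4) and 810 ± 135 CPM in Ly6D-Gfra2- (SD, n = 6). The log2 fold change was -0.71 for Ly6D+Gfra2+ against Ly6D+Gfra2- (SE 0.19; edgeR adjusted p = 0.123), which missed the threshold of 0.05. Without Ly6D+Gfra2+ replicate 4 it was -0.92 with an adjusted p of 0.045. Against Ly6D-Gfra2- it was -0.40 (SE 0.18; edgeR adjusted p = 0.304). Exons of 2 opposite-strand transcripts overlap those of Notch1, 0610009E02Rik by 1068 bases and Gm13568 by 414 bases, and the strand setting of the counting is not given in the sources used here.

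Hes1 (NM_008235, chromosome 16, 30065357 to 30067796) encodes a transcriptional repressor and is a direct Notch target. It was at 15.9, 74.4 and 25.6 CPM in Ly6D+Gfra2+ libraries, 4.22, 0.254, 10.5 and 12.0 CPM in Ly6D+Gfra2- libraries and 0.199 to 9.39 CPM (median 3.21) in Ly6D-Gfra2- libraries. Each Ly6D+Gfra2+ library lay above all 10 others, and replicate 5 was the highest of all. The log2 fold change was 2.50 against Ly6D+Gfra2- (SE 1.21; edgeR adjusted p = 0.388) and 3.18 against Ly6D-Gfra2- (SE 1.40; edgeR adjusted p = 0.288), so neither difference passed. Both comparisons use the same 3 Ly6D+Gfra2+ libraries. Within prefix T, where both other groups had 0.833 to 12.0 CPM, the values were 1.77 (adjusted p = 0.606) and 3.98 (adjusted p = 0.137).

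Dtx1 (NM_008052, chromosome 5, 120680203 to 120711867) encodes Deltex, a ubiquitin ligase of the pathway, and was scarce. It was at 0, 4.31 and 0 CPM in Ly6D+Gfra2+ libraries, at 0.454, 3.45, 0 and 0 CPM in Ly6D+Gfra2- libraries and at 1.69 to 5.54 CPM (median 2.78) in Ly6D-Gfra2- libraries. Only the Ly6D-Gfra2- group had counts in every library, and all groups overlapped. In the comparison of Ly6D+Gfra2- with Ly6D-Gfra2- the log2 fold change was -2.52 (SE 2.16; edgeR adjusted p = 0.999). That difference was the most unlike between prefixes of the 9 genes, by -8.21 (T minus P, log2, SE 2.82; edgeR unadjusted p = 0.012, adjusted p = 0.600). All Ly6D+Gfra2- libraries of prefix T are listed at 0, so the size of that value depends on the prior count.

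Nrarp (NM_025980, chromosome 2, 25180758 to 25183339) encodes a small ankyrin-repeat protein that limits Notch signalling as a target of it. It was at 0, 0 and 15.7 CPM in Ly6D+Gfra2+ libraries, at 0.0649, 3.15, 0.560 and 0.507 CPM in Ly6D+Gfra2- libraries and at 0 to 6.77 CPM (median 3.54) in Ly6D-Gfra2- libraries. The highest value of all and 2 of the 3 zeros were in the Ly6D+Gfra2+ group. Its log2 fold change was 3.03 against Ly6D+Gfra2- (SE 2.27; edgeR adjusted p = 0.603) and 1.28 against Ly6D-Gfra2- (SE 1.94; edgeR adjusted p = 0.828). Without Ly6D+Gfra2+ replicate 6, both remaining libraries of that group are listed at 0 and the sign turns. The opposite-strand transcript Gm38287 overlaps Nrarp over 2051 exonic bases.

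Tcf7 (NM_009331, chromosome 11, 52246527 to 52283383) encodes TCF-1, a transcription factor needed for T-cell specification. Ly6D+Gfra2+ libraries held 0, 0 and 1 count, the last worth 0.108 CPM. Ly6D+Gfra2- libraries were at 6.49, 1.68, 3.83 and 2.13 CPM, and Ly6D-Gfra2- libraries at 4.58 to 22.4 CPM (median 6.05). All 10 libraries without Gfra2 were above all Ly6D+Gfra2+ libraries, and Ly6D-Gfra2- replicates 5 and 6, at 22.2 and 22.4 CPM, stood above the other 4 of their group, at 4.58 to 6.28 CPM. Tcf7 fell in Ly6D+Gfra2+ cells against Ly6D-Gfra2- cells, by 8.12 on the log2 scale (SE 1.61; edgeR adjusted p = 0.0204). As a ratio of pooled counts, the single count put it 252-fold lower, with a 95% counting interval of 45.1 to 9960. Leaving out any of 3 libraries ended the call, namely Ly6D+Gfra2+ replicate 5 (adjusted p = 0.0519), Ly6D-Gfra2- replicate 5 (adjusted p = 0.0780) and Ly6D-Gfra2- replicate 6 (adjusted p = 0.0663). The log2 fold change stayed between -10.40 and -7.66 whichever of the 13 libraries was left out. Without Ly6D+Gfra2+ replicate 6, which holds the count, the fitted value was -10.40 (adjusted p = 0.0247), a number that depends on the prior count. Against Ly6D+Gfra2- the log2 fold change was -6.77 (SE 1.61; edgeR adjusted p = 0.0784), and the ratio of pooled counts 92.2-fold lower with a 95% interval of 16.4 to 3660.

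Gata3 (NM_008091, chromosome 2, 9857078 to 9887953) encodes a zinc-finger factor used by T cells and by innate lymphoid cells. It was at 1.37, 0 and 0.325 CPM in Ly6D+Gfra2+ libraries, at 0, 2.23, 1.03 and 0.609 CPM in Ly6D+Gfra2- libraries and at 1.24 to 13.6 CPM (median 5.11) in Ly6D-Gfra2- libraries. The lowest Ly6D-Gfra2- library lay within the range of both other groups. The log2 fold change was -2.86 for Ly6D+Gfra2+ against Ly6D-Gfra2- (SE 1.72; edgeR adjusted p = 0.458) and -2.51 for Ly6D+Gfra2- against Ly6D-Gfra2- (SE 1.42; edgeR unadjusted p = 0.0944, adjusted p = 0.999). Exons of Gm13256, on the opposite strand, and 9230102O04Rik, on the same strand, overlap Gata3 by 155 and 77 bases.

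Cd28 (NM_007642, chromosome 1, 60746388 to 60773359) encodes the costimulatory receptor of T cells, which binds Cd80 and Cd86. It was at 1.49, 2.03 and 0.433 CPM in Ly6D+Gfra2+ libraries, at 90.6, 125, 36.5 and 68.6 CPM in Ly6D+Gfra2- libraries and at 11.3 to 122 CPM (median 52.6) in Ly6D-Gfra2- libraries. The highest Ly6D+Gfra2+ library was below the lowest of the other 10. Cd28 averaged 1.32 ± 0.814 CPM in Ly6D+Gfra2+ (SD, n = 3), 80.1 ± 37.1 CPM in Ly6D+Gfra2- (SD, n = 4) and 62.1 ± 48.1 CPM in Ly6D-Gfra2- (SD, n = 6). Against Ly6D-Gfra2- cells it fell by 4.28 on the log2 scale (SE 0.65; edgeR adjusted p = 0.00388), and against Ly6D+Gfra2- cells its value was -4.99 (SE 0.67; edgeR adjusted p = 0.00384). Both calls held whichever library was left out, with adjusted p of 0.00401 to 0.0154 and 0.00312 to 0.0151 in the 2 comparisons.

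Cd28 values were lower under prefix T than under prefix P in both groups that hold both. Ly6D+Gfra2- libraries had 36.5 and 68.6 CPM under T and 90.6 and 125 CPM under P. Ly6D-Gfra2- libraries had 11.3, 31.6 and 20.8 CPM under T and 122, 73.5 and 114 CPM under P. Those 2 sets did not overlap in either group. Within prefix T alone the log2 fold changes were -5.32 against Ly6D+Gfra2- (adjusted p = 0.0884) and -4.00 against Ly6D-Gfra2- (adjusted p = 0.0993), but neither passed with 8 libraries in the fit. Whether the difference between Ly6D+Gfra2- and Ly6D-Gfra2- depended on the prefix was tested, and for Cd28 it was larger under T by 1.24 (log2, SE 0.66; edgeR adjusted p = 0.715). Of the 9 genes 0 passed that test, as did 0 of 12140 genes with edgeR, while 872 had an unadjusted p under 0.05.

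**Figure D2:**
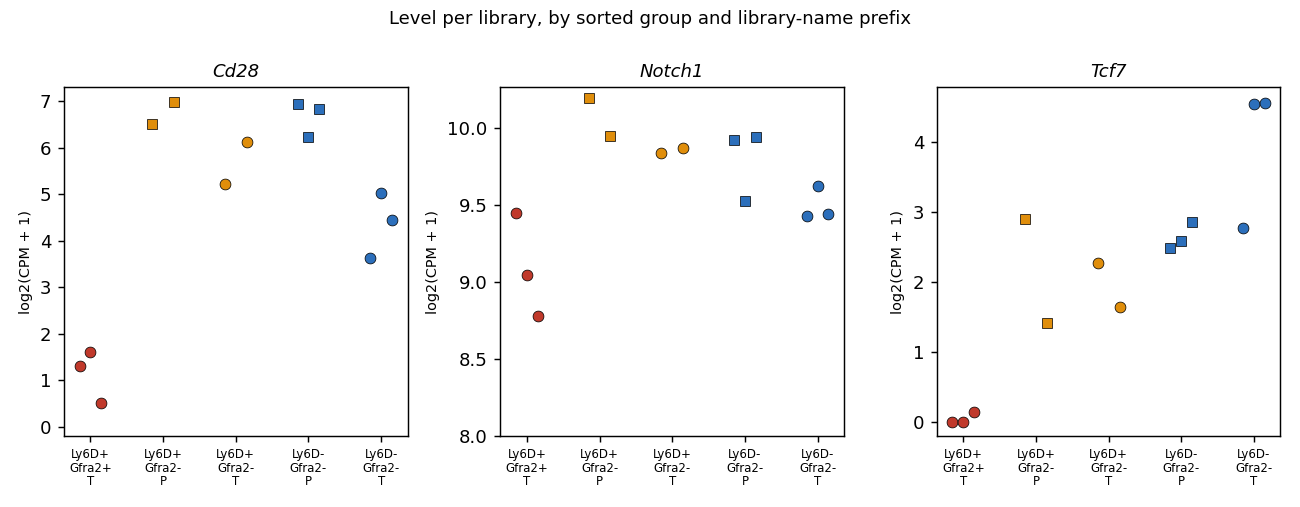
Level of Cd28, Notch1 and Tcf7 as log2(CPM + 1) in each library, by sorted group and library-name prefix (squares P, circles T; the Notch1 axis starts at 8). Ly6D+Gfra2+ libraries exist under T only, and their Cd28 and Tcf7 points lie below those of the T libraries of both other groups.

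Cd7 (NM_009854, chromosome 11, 121036747 to 121039478) encodes an immunoglobulin-family protein of T and NK cells. It was listed at 0 in all 3 Ly6D+Gfra2+ libraries, at 0, 3.81, 1.77 and 9.95 CPM in Ly6D+Gfra2- libraries and at 0 to 9.05 CPM (median 0.476) in Ly6D-Gfra2- libraries, of which 3 had no count. Set against 3 counts over the group, it was in Ly6D+Gfra2+ at least 30.3-fold lower than the Ly6D+Gfra2- level (edgeR adjusted p = 0.313) and at least 23.3-fold lower than the Ly6D-Gfra2- level (edgeR adjusted p = 0.312). These bounds pool the counts of a group and cover counting error of the group at 0 alone. They leave out the counting error of the other group and the spread between libraries. Both other groups include libraries at 0, so all 3 groups overlapped. The opposite-strand transcript Gm11775 shares 122 exonic bases with Cd7.

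Thy1 (NM_009382, chromosome 9, 44043384 to 44048579) encodes Thy-1, a glycoprotein anchored in the membrane of T cells. It was at 0, 2.39 and 10.2 CPM in Ly6D+Gfra2+ libraries, at 0, 5.94, 28.0 and 20.2 CPM in Ly6D+Gfra2- libraries and at 0.0890 to 12.6 CPM (median 2.94) in Ly6D-Gfra2- libraries. All 3 groups overlapped, with the 2 highest values under prefix T of Ly6D+Gfra2-. Its log2 fold change was -1.98 for Ly6D+Gfra2+ against Ly6D+Gfra2- (SE 1.86; edgeR adjusted p = 0.701) and 1.06 for Ly6D+Gfra2- against Ly6D-Gfra2- (SE 1.54; edgeR adjusted p = 0.999).

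Cd3g (NM_009850, chromosome 9, 44969572 to 44980431), which encodes the gamma chain of the CD3 complex, was read in 1 library. Ly6D-Gfra2- replicate 6 had 13 counts, or 1.69 CPM, and the other 12 libraries had 0. It did not pass the filter and was not tested. Set against 3 counts over the Ly6D+Gfra2+ group, the pooled Ly6D-Gfra2- level was 1.40-fold higher. That figure takes the 13 counts as free of error. They came from 1 library, so no difference between groups can be read from it.

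Set side by side, the 3 comparisons gave 0, 1 and 2 called genes of the 9 tested. For Ly6D+Gfra2- against Ly6D-Gfra2-, edgeR, DESeq2 and limma each called 0 members. With edgeR 0 of the 9 tested members had an unadjusted p under 0.05. Over all genes edgeR called 0 of 12722 (0%), with 599 at an unadjusted p under 0.05, while DESeq2 called 20 genes and limma 1. With the library labelled replicate 3 of Ly6D-Gfra2- left out, edgeR called 16 genes, 0 of them members. The ranges of all 10 genes overlapped in that comparison.

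For Ly6D+Gfra2+ against Ly6D+Gfra2-, 1 of the 9 genes, Cd28, fell with edgeR, where 0.204% of 12722 genes were called lower. Notch1, Tcf7 and Cd28 did not overlap and were lower, against 5.71% of all genes, and Hes1 did not overlap and was higher, against 4%. DESeq2 called 4 lower (Notch1, adjusted p = 0.0405; Tcf7, adjusted p = 0.00126; Cd28, adjusted p = 2.63e-13; Cd7, adjusted p = 4.64e-09), where it called 2.55% of all genes lower. The Cd7 call rests on a group listed at 0 in every library, so its fitted fold change has no bound. Ly6D+Gfra2- replicate 1 was at 0 as well, and edgeR did not call Cd7 (adjusted p = 0.313). The median log2 fold change of the 9 genes was -0.71, against 0.03 over all genes. Limma called 0 of the 9, with Cd28 at -5.27 (adjusted p = 0.282).

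For Ly6D+Gfra2+ against Ly6D-Gfra2-, 2 of the 9 genes, Cd28 and Tcf7, fell with edgeR, where 0.464% of all genes were called lower. These same genes did not overlap and were lower, against 6.19% of all genes. Hes1 again did not overlap and was higher, against 4.03%. DESeq2 called 3 lower, Cd28 (adjusted p = 6.06e-11), Tcf7 (adjusted p = 1.43e-05) and Cd7 (adjusted p = 1.18e-09), against 3.55% of all genes. Cd7 was again set against a group listed at 0 throughout. It was also at 0 in 3 Ly6D-Gfra2- libraries, and edgeR did not call it (adjusted p = 0.312). The median of the 9 was -0.92, against 0.01 over all genes. Limma called 0, with Tcf7 at -7.28 (adjusted p = 0.110) and Cd28 at -4.75 (adjusted p = 0.276). With the library labelled replicate 3 of Ly6D-Gfra2- left out, edgeR called the same 2 genes (Cd28, -4.24, adjusted p = 0.00561; Tcf7, -8.13, adjusted p = 0.0296). Scaling by library size alone moved the median of all genes to -0.15 against Ly6D+Gfra2- and -0.25 against Ly6D-Gfra2-, and left the calls at 1 and 2.

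**Figure D3:**
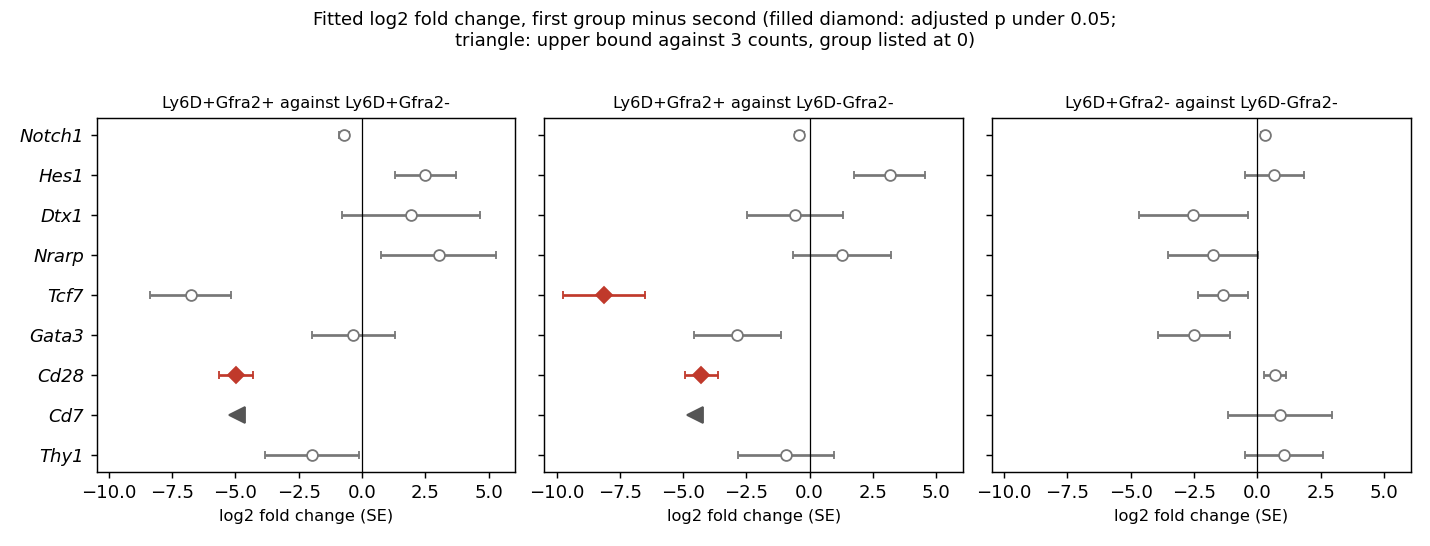
Fitted log2 fold change with its SE for the 9 tested genes in each comparison, first group minus second; filled diamonds passed an adjusted p of 0.05 with edgeR. Triangles give Cd7, listed at 0 in Ly6D+Gfra2+, as its bound against 3 counts. The filled points are Cd28 in 2 comparisons and Tcf7 in 1.

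The genes whose levels ran most like those of the called genes were picked by Pearson correlation of log2(CPM + 1) over the 13 libraries, which share groups, prefixes and depth. For Cd28 these were Gapt (r = 0.957), Klhl30 (r = 0.939) and Bola1 (r = 0.936). Gapt lay at 0 to 1.03 CPM in Ly6D+Gfra2+, 36.1 to 99.8 CPM in Ly6D+Gfra2- and 14.4 to 59.4 CPM in Ly6D-Gfra2- libraries. Klhl30 lay at 0 to 0.108, 4.48 to 26.2 and 1.90 to 21.3 CPM in the same order of groups. For Tcf7 they were Il1r1 (r = 0.892), H3c7 (r = 0.884) and Tk2 (r = 0.882). Il1r1, a receptor for interleukin-1, was at 22.8 to 37.9 CPM in Ly6D+Gfra2+, 68.5 to 172 CPM in Ly6D+Gfra2- and 72.6 to 249 CPM in Ly6D-Gfra2- libraries.

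The other genes of the Notch pathway and of early T cells were taken from 10 lists of 77 genes in all, of which 60 were tested. With edgeR 0 of the 60 were called in each comparison, and unadjusted p was under 0.05 for 13 in Ly6D+Gfra2+ against Ly6D+Gfra2-, 12 in Ly6D+Gfra2+ against Ly6D-Gfra2- and 4 in Ly6D+Gfra2- against Ly6D-Gfra2-. As shares of the 60 these are 21.7%, 20% and 6.67%, against 13.2%, 15.4% and 4.71% of all genes tested. Limma also called 0 in each. DESeq2 called Zbtb7b lower in Ly6D+Gfra2+ against both other groups. It called 2.55% of all genes lower against Ly6D+Gfra2- and 3.55% against Ly6D-Gfra2-. Zbtb7b, which encodes the CD4-lineage factor ThPOK, was listed at 0 in all 3 Ly6D+Gfra2+ libraries, but also in 3 of the 4 Ly6D+Gfra2- libraries, so that difference rests on Ly6D+Gfra2- replicate 1, at 21.6 CPM. It was at 0 to 4.82 CPM in Ly6D-Gfra2- libraries. Against Ly6D-Gfra2- DESeq2 also called Notch2, Pofut1 and Lcp2 lower and Maml1 higher, where it called 3.55% of all genes lower and 2.66% higher. The 5 genes that DESeq2 called are named after their values were seen.

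Among receptors, Notch2, which guides splenic B-cell subsets, was at 194 ± 108 CPM in Ly6D+Gfra2+ (n = 3), 354 ± 38.4 CPM in Ly6D+Gfra2- (n = 4) and 463 ± 63.4 CPM in Ly6D-Gfra2- libraries (n = 6, all SD). Its log2 fold change was -1.19 for Ly6D+Gfra2+ against Ly6D-Gfra2- (SE 0.32; edgeR adjusted p = 0.0777) and -0.80 against Ly6D+Gfra2- (SE 0.34; edgeR adjusted p = 0.316). Notch3 and Notch4 were listed at 0 in Ly6D+Gfra2+ and averaged at most 1.02 CPM in the other groups. Of the ligands, Dll4 had 0 counts in all 13 libraries, and Jag2 was at 0, 0 and 53.7 CPM in Ly6D+Gfra2+ libraries, 25.0, 6.29, 1.96 and 2.23 CPM in Ly6D+Gfra2- libraries and 6.90 to 14.0 CPM (median 8.78) in Ly6D-Gfra2- libraries. All Jag2 counts of Ly6D+Gfra2+ came from replicate 6.

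The 13 genes of processing and sugar modification, among them the protease Adam10, the gamma-secretase subunit Ncstn and the fringe enzyme Mfng, summed to 528 to 653 CPM in Ly6D+Gfra2+, 586 to 797 CPM in Ly6D+Gfra2- and 556 to 794 CPM in Ly6D-Gfra2- libraries. Not all members were well read. The gamma-secretase subunit Aph1a had a median of 0.120 CPM among Ly6D+Gfra2+ libraries, 2.23 CPM among Ly6D+Gfra2- and 7.42 CPM among Ly6D-Gfra2- libraries. For its relative Aph1b the medians were 0.325, 0.513 and 0.122 CPM in the same order of groups. Pofut1, which adds fucose to Notch, was at 15.6 ± 4.55 CPM in Ly6D+Gfra2+ (SD, n = 3), 34.9 ± 14.3 CPM in Ly6D+Gfra2- (SD, n = 4) and 48.5 ± 22.3 CPM in Ly6D-Gfra2- (SD, n = 6), with an edgeR adjusted p of 0.381 for Ly6D+Gfra2+ against Ly6D+Gfra2- and 0.176 against Ly6D-Gfra2-. Aph1a, Aph1b and Pofut1 were chosen after their values were seen. The 8 genes of the nuclear complex, led by the acetyltransferases Crebbp and Ep300 and the coactivator Maml3, summed to 1970 to 2390, 1750 to 2300 and 1710 to 2100 CPM in those groups. Their median log2 fold change for Ly6D+Gfra2+ was 0.21 against Ly6D+Gfra2- and 0.27 against Ly6D-Gfra2-. The 13 repressors and turnover factors, led by Spen, Cbl and Zbtb7a, had medians of 0.10 and 0.33 in the same comparisons.

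Other known Notch targets were mixed in level. Myc, a growth regulator, was at 1047 ± 394 CPM in Ly6D+Gfra2+ (SD, n = 3), 717 ± 192 CPM in Ly6D+Gfra2- (SD, n = 4) and 765 ± 185 CPM in Ly6D-Gfra2- (SD, n = 6). Its log2 fold change was 0.78 against Ly6D+Gfra2- (SE 0.27; edgeR adjusted p = 0.217) and 0.67 against Ly6D-Gfra2- (SE 0.24; edgeR adjusted p = 0.205). Hes6 and Hes5 had adjusted p of at least 0.853 in both. Hey1 and Hey2 had 0 counts in all 13 libraries.

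Of the further T-lineage genes, the transcription factor Tox was at 10.5 ± 13.4 CPM in Ly6D+Gfra2+ (SD, n = 3), 41.8 ± 28.7 CPM in Ly6D+Gfra2- (SD, n = 4) and 55.6 ± 7.78 CPM in Ly6D-Gfra2- (SD, n = 6). Against Ly6D-Gfra2- its log2 fold change was -2.39 (SE 0.84; edgeR adjusted p = 0.185). Runx3 averaged 112, 129 and 179 CPM and Hhex 94.6, 161 and 132 CPM in Ly6D+Gfra2+, Ly6D+Gfra2- and Ly6D-Gfra2- libraries. Signalling genes of the T-cell receptor that other lymphoid cells also use were well read, with Cd247 at 99.8, 96.2 and 94.8 CPM, Fyn at 102, 78.2 and 65.4 CPM, and Lck at 68.3, 78.8 and 63.9 CPM in the same groups. On the surface, Cd27, a receptor of the tumour necrosis factor family, averaged 318 ± 53.5 CPM in Ly6D+Gfra2+ (SD, n = 3), 391 ± 31.8 CPM in Ly6D+Gfra2- (SD, n = 4) and 480 ± 76.7 CPM in Ly6D-Gfra2- (SD, n = 6).

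Markers of mature T cells summed to 27.0 to 69.2 CPM in Ly6D+Gfra2+, 36.7 to 110 CPM in Ly6D+Gfra2- and 75.5 to 123 CPM in Ly6D-Gfra2- libraries. Of the 10 markers 4 were tested and 0 called in each comparison. The defining chains were near the floor, with Cd3d at most 0.120, 0.812 and 1.07 CPM and Cd3e at most 0.217, 0.974 and 0.438 CPM in those groups, and Cd8a at 0 in every Ly6D+Gfra2+ library. Of the 12 B-lineage markers edgeR called 3 higher in Ly6D+Gfra2+ when set against Ly6D+Gfra2- and 7 higher when set against Ly6D-Gfra2-, where it called 0.204% and 0.928% of all genes higher. Summed markers of plasmacytoid dendritic cells were 822 to 1280 CPM in Ly6D+Gfra2+, 3590 to 4340 CPM in Ly6D+Gfra2- and 1640 to 4290 CPM in Ly6D-Gfra2- libraries. Of the 7 tested, edgeR called Runx2 lower in Ly6D+Gfra2+ against both other groups. It called 0.204% of all genes lower against Ly6D+Gfra2- and 0.464% against Ly6D-Gfra2-. Granulocyte and monocyte markers summed to 198 to 438 CPM in Ly6D+Gfra2+, 426 to 580 CPM in Ly6D+Gfra2- and 634 to 1390 CPM in Ly6D-Gfra2- libraries. Of the 8 tested, edgeR called Mpo and S100a9 lower in Ly6D+Gfra2+ against Ly6D-Gfra2-, where it called 0.464% of all genes lower. Mean Mpo was 240 ± 123 CPM in Ly6D+Gfra2+ libraries (SD, n = 3), against 792 ± 242 CPM in Ly6D-Gfra2- libraries (SD, n = 6), and S100a9 had a single count over the Ly6D+Gfra2+ group and 0 to 177 CPM in Ly6D-Gfra2-. The part of these 3 lists, and that of the lower number of genes read in Ly6D+Gfra2+ libraries, in the values of Cd28 and Tcf7 was not tested.

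**Figure D4:**
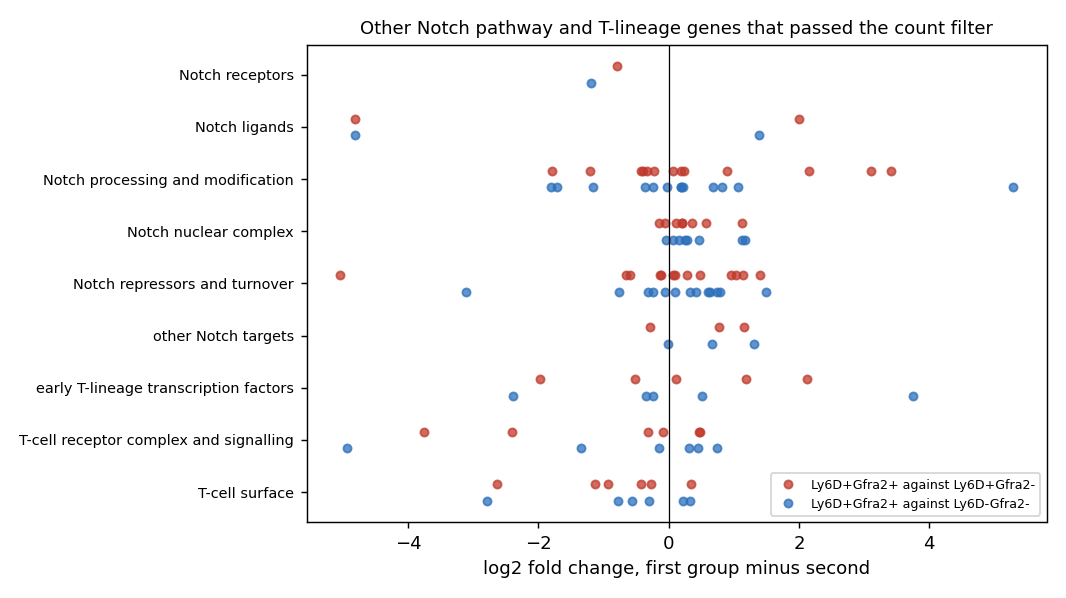
Fitted log2 fold change of each tested gene in 9 lists of other Notch pathway and T-lineage genes, Ly6D+Gfra2+ against Ly6D+Gfra2- (red) and against Ly6D-Gfra2- (blue). Notch4 and Zbtb7b, listed at 0 in Ly6D+Gfra2+, are left out, and 0 of the plotted genes passed an adjusted p of 0.05 with edgeR.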

How the data were processed

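Each of the 13 files holds raw counts per RefSeq identifier as the authors deposited them, per the file headers. HOMER, DESeq, HISAT, TopHat and FastQC, and the build mm10, are listed per the submitters' processing notes. Their roles, the annotation, the strand setting and the treatment of reads with several matches are not given in the sources used here. Libraries were built with NuGEN Ovation kits, per the labels' protocols. Of the 24072 identifiers 23815 were named from the RefSeq table of GRCm38.p6 and 144 from GENCODE, and 113 had no name. Positions come from the RefSeq table. Overlaps with other genes use GENCODE exons.

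The quasi-likelihood test of edgeR 4.0.16 (R 4.3.3) was run on the counts, with terms for group and prefix, TMM scaling and all 13 libraries in 1 fit. Genes were kept by filterByExpr (minimum count 10, minimum total 15), which left 12722. P-values are two-sided and adjusted by Benjamini-Hochberg over all of them, and calls need an adjusted p under 0.05. SE is the log2 fold change divided by the square root of F. Intervals (95%, exact) cover counting error only. Bounds against 3 counts cover it for the group at 0 and take the other group's total as free of error. DESeq2 1.42.0, limma 3.58.1 (voom with quality weights) and further settings were alternatives. The fit was also run on simulated counts with known fold changes and no difference between prefixes. No result given here rests on that run.

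The members and lists were chosen with earlier results of these data known. All 10 members, called list genes and at most 3 further genes of each list by mean CPM are named, with the 3 genes most like each called member.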

Additional observations from a re-analysis of the deposited data

Results flagged for a closer look

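A single library stood far from the others of its group for 5 of the 19 sets of values that could be examined. The limits used give about 1 in 20 by chance only for normally distributed values. All 5 sets are of scarce genes, with no value above 9.05 CPM, so 5 of 19 cannot be read as an excess. Dtx1 was at 3.45 CPM in Ly6D+Gfra2- replicate 2, with the next library at 0.454 CPM, and at 5.54 CPM in Ly6D-Gfra2- replicate 5, with the next at 2.98 CPM. Nrarp was at 3.15 CPM in Ly6D+Gfra2- replicate 2, and the next library of that group was at 0.560 CPM. Cd7 was at 9.05 CPM in replicate 3 of the group labelled Ly6D-Gfra2-, the library with Ly6d RNA at 213 CPM, and the next was at 2.85 CPM. Cd3g was at 1.69 CPM in Ly6D-Gfra2- replicate 6 and at 0 in the others. The cause was not tested. The Ly6D+Gfra2+ group, with 3 libraries, could not be examined in this way.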

How the results depend on the processing

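The count of called members of Ly6D+Gfra2- against Ly6D-Gfra2- was 0 under every alternative run. For the prefix test it was 0 too, leaving aside fits without 1 Ly6D+Gfra2- library, which keep a single library of that prefix there. Over all genes the counts were not always 0. Without the filter on low counts the prefix test called 39 of 16048 genes, and DESeq2 called 20 of Ly6D+Gfra2- against Ly6D-Gfra2-. Of the members, Ly6D+Gfra2+ against Ly6D+Gfra2- had 1 called, against 4 with DESeq2. It had 0 with limma, with the 2 groups alone (Cd28 -5.31, adjusted p = 0.0709) or with prefix T alone, and leaving out 1 library gave 1 to 2. Against Ly6D-Gfra2-, 2 were called, against 0 with limma, 0 with prefix T alone (Tcf7 -8.38, adjusted p = 0.0632) and 1 with the replicate block (Tcf7 -8.19, adjusted p = 0.0752); leaving out 1 library gave 1 to 2. After group and prefix terms, residuals of 9 same-numbered pairs correlated at -0.226 to 0.010 and of 18 other pairs at -0.261 to 0.049. So few pairs, with those terms removed, cannot exclude that libraries of the same number are paired. Names of T libraries also end in a label that carries the replicate number, of unstated meaning. The replicate block gave 0, 1 and 1 called in the 3 comparisons and 25 genes of all against 52, and 92 against 177.

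Of 630 single-gene values 599 kept direction and side of the threshold, 11 lost it, 5 gained it and 15 turned sign; no call turned. Leaving out 1 library at a time gave -0.19 to 4.04 for Cd7 of Ly6D+Gfra2- against Ly6D-Gfra2-. It gave -5.27 to 3.78 for Dtx1, -6.04 to 3.79 for Nrarp and -2.07 to 0.23 for Gata3 of Ly6D+Gfra2+ against Ly6D+Gfra2-, and -7.79 to 0.19 for Dtx1 and -7.79 to 2.68 for Nrarp of Ly6D+Gfra2+ against Ly6D-Gfra2-. All Dtx1 counts of Ly6D+Gfra2+ are in replicate 5 and all Nrarp counts in replicate 6. Without that library the group is at 0, and the size of the fitted value depends on the prior count. For Ly6D+Gfra2- against Ly6D-Gfra2-, Hes1 was -1.29 with prefix P alone and -0.64 there without replicate 3 of Ly6D-Gfra2-, Cd7 -0.65 and Thy1 -0.21 with prefix P alone, and Cd7 -0.19 without Ly6D+Gfra2- replicate 6. For Ly6D+Gfra2+ against Ly6D+Gfra2-, Dtx1 was -0.90 with limma and -5.27 without Ly6D+Gfra2+ replicate 5, Nrarp -6.04 without Ly6D+Gfra2+ replicate 6, and Gata3 0.07 without Ly6D+Gfra2- replicate 2 and 0.23 without Ly6D+Gfra2+ replicate 5. Against Ly6D-Gfra2-, Dtx1 was 0.19 without Ly6D-Gfra2- replicate 5 and 0.008 without Ly6D+Gfra2+ replicate 6, and Nrarp -0.23 with limma, -1.07 with the replicate block and -7.79 without Ly6D+Gfra2+ replicate 6. The cause was not tested.

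Leaving out 1 library moved the calls over all genes to between 12 and 184 against Ly6D+Gfra2- and between 49 and 372 against Ly6D-Gfra2-, highest in both without Ly6D+Gfra2+ replicate 6, and lowest without Ly6D+Gfra2- replicate 5 and without Ly6D-Gfra2- replicate 5. Over all genes, calls against Ly6D+Gfra2- split into 26 higher and 26 lower, 15 and 33 with library size alone and 24 and 1 with limma. Against Ly6D-Gfra2- they split into 118 and 59, 45 and 66, and 105 and 4. The scarcest genes rest on few counts, as 3 counts are worth 0.133 to 0.389 CPM.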
